A study of Selaginella kraussiana with 4 samples.

Results

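Of the 26055 merged loci of at least 300 bp in the transcriptome of the spikemoss Selaginella kraussiana, 442 (1.7%) were preferential to the microphyll, the small leaf of this lycophyte. A locus is a stretch of a draft genome contig for which the authors' pipeline listed a transcript, and loci of the 4 libraries were merged on an overlap of 1 bp or more. The 442 loci were selected on their FPKM (fragment counts scaled to transcript length and library size). In each of them log2 of (FPKM + 1) in the microphyll was higher by at least 2 than in the highest other tissue, and this difference is called the preference. The preference is therefore a description, and no test of it was made. The 442 loci lie on 440 contigs.

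The study sequenced RNA from the microphyll, the shoot tip, the rhizophore tip and the stem of plants kept in long days, with 16 h of light and 8 h of darkness, at 26 °C. Each tissue had 1 library, so no value has a replicate check. The deposited labels call the tissues leaf, seedling, rhizophore and stem, and seedling is read here as shoot tip, since leaf, rhizophore and stem have their counterparts in the study. The labels give neither the number nor the age of the plants behind a library. The tables pair no locus with a gene, so leaf-defining genes could not be looked up and the tissue label was not checked against markers.

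Microphylls are leaves with an unbranched vein, and they are thought to have arisen in the lycophyte lineage separately from the leaves of ferns and seed plants. As the main photosynthetic organ of the plant, a mature leaf usually has abundant transcripts for light harvesting and carbon fixation. The shoot tip bears young microphylls around its meristem, and the rhizophore is the leafless axis that grows from a branch junction and bears roots.

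The members ranged widely in level. Their microphyll FPKM ran from 3.02 to 11844, with a median of 25.2 and quartiles of 6.03 and 115. The 22247 merged loci of at least 300 bp with a microphyll entry had a median of 10.8. A microphyll FPKM of at least 100 was found in 124 members, or 28.1%, beside 9.70% of all listed loci. The rule selects on this same FPKM, so a higher level than in all listed loci is at least partly set by the selection. At the low end, 158 members had an FPKM under 10. Most preferences were close to the threshold, with 323 from 2 to under 3, 69 from 3 to under 4, and 26 of at least 5. Members were shorter than the loci as a whole, with a median merged length of 666 bp against 1014 bp. This did not hold for all members, since the median was 425.5 bp for those listed in the microphyll alone and 1244 bp for those listed in all 4 libraries. Merging entries of more libraries can also lengthen a locus. Together the members held 8.02% of the summed microphyll FPKM over loci of at least 300 bp, and 3.65% of the fragments derived as described for the loci listed in the microphyll alone.

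Listing in the other tissues split the members into 3 groups. In 180 members (40.7%) the locus was listed in the microphyll table and in no other. Of all 26055 merged loci of at least 300 bp, 1168 (4.48%) were listed in this way. Without another entry the preference rests on the microphyll FPKM alone, so the share among the members is partly set by the selection. This share depends on how members are called. It was 75.5% with a pseudocount of 0.1 in place of 1, 12.7% with 5, and 10.7% where the rule was applied in TPM. TPM scales each library to the same summed value, 1000000, and the pseudocount stayed at 1 there. Microphyll values became smaller, since their summed FPKM was 3861860. A locus without another entry then passes only from a higher FPKM. Another 179 were listed in all 4 tables. The remaining 83 were listed in the microphyll and in 1 or 2 other tissues, most often in the shoot tip and the stem together (43 loci) or in the shoot tip alone (19 loci). An entry was present for 247 members (55.9%) in the shoot tip, for 233 (52.7%) in the stem and for 193 (43.7%) in the rhizophore tip. Over all 26055 loci, 22579, 21603 and 22241 had an entry in the same order of tissues. The rule favours loci with low or absent values elsewhere, so fewer entries among the members are partly set by the selection. An absent entry was given an FPKM of 0, which means that no transcript was listed there and not that no read was present.

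**Figure D1:**
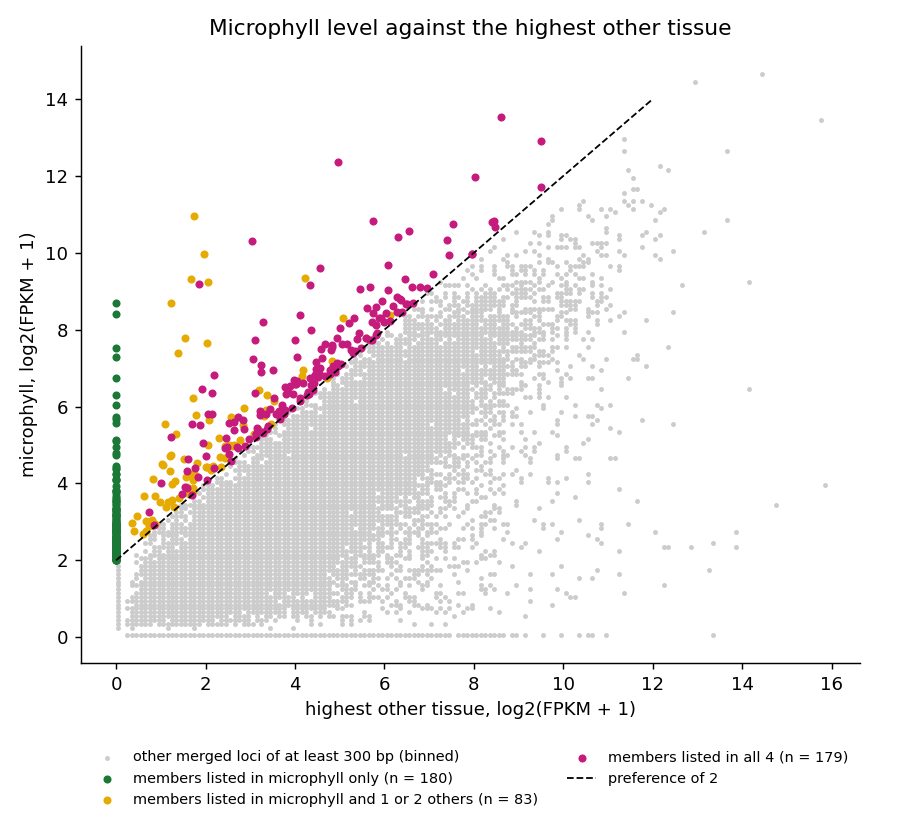
Level in the microphyll (y axis) against the highest level of the shoot tip, rhizophore tip and stem (x axis), both as log2 of (FPKM + 1). Coloured points are the 442 members by the tables that list them, grey points are bins that hold the other merged loci of at least 300 bp, and the dashed line is a preference of 2. The 180 loci listed in the microphyll alone stand at 0 on the x axis, mostly at low microphyll levels.

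Members listed in the microphyll alone were mostly low. Their median FPKM was 4.996 (quartiles 3.75 and 8.11), and 145 of the 180 were under 10. The number of fragments behind an FPKM was derived from the deposited interval, read as 2 Poisson standard deviations on each side. By this measure their median was 48.5 fragments, and about 5% of all entries in each table rested on 11 or fewer. The number 11 was taken as the level at which a transcript tends to be listed at all. When every other library was placed at this level and scaled for depth, 89 of the 180 still had at least 4 times more fragments in the microphyll, and the other 91 did not reach that ratio or had no usable number. For the low members, an absent entry and a level just under listing cannot be told apart.

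The 5 highest of these loci were far above that level. Highest was the locus from 5810 to 6603 of contig 102251, with an FPKM of 414 in the microphyll (interval 392 to 435, 1505 fragments) and no entry elsewhere. Contig 102154 followed, from 2 to 823, with 337 (323 to 351, 2318 fragments). Like the first, each of the next 3 was a single entry that spanned the whole merged locus. They were the loci on contig 096191 from 2373 to 3431 with an FPKM of 181 (172 to 191, 1576 fragments) and on contig 087360 from 1 to 653 with 155 (150 to 161, 3402 fragments). The fifth, on contig 050875 from 488 to 1786, had 107 (101 to 112, 1648 fragments). With the other libraries at 11 fragments, the log2 ratios of these 5 loci lay between 6.90 (contig 102251) and 8.07 (contig 087360). The 5 thus had more than 100 times as many fragments as the listing level, and no entry elsewhere.

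Members listed in all 4 tissues carried the higher levels. Their median FPKM was 121 in the microphyll (quartiles 55.0 and 316), against 14.0 for shoot tip (4.85 and 34.7), 9.60 for rhizophore tip (3.16 and 24.4) and 13.6 for stem (5.57 and 41.2). The quartile ranges of the other 3 tissues overlapped, and the microphyll range stood above all of them, a direction that the selection sets. The rule did not fix which of the other tissues comes last. Among the 179 loci the rhizophore tip was lowest in 93 (52.0%), the shoot tip in 51 (28.5%) and the stem in 35 (19.6%). Among the loci listed in all 4 tables that are no members, the rhizophore tip was the lowest of the same 3 in 28.5% and the stem in 40.8%. Among those with a preference between 0 and 2 these shares were 40.9% and 34.4%. In TPM the rhizophore tip was lowest in 73.7% of the 179 members and the stem in 3.35%. The summed FPKM was 7976760 for the rhizophore tip against 3391760 for the stem. TPM therefore lowers rhizophore tip values relative to stem values at every locus, member or not. No TPM share is given here for the loci that are no members, so the TPM shares do not set the members apart.

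**Figure D2:**
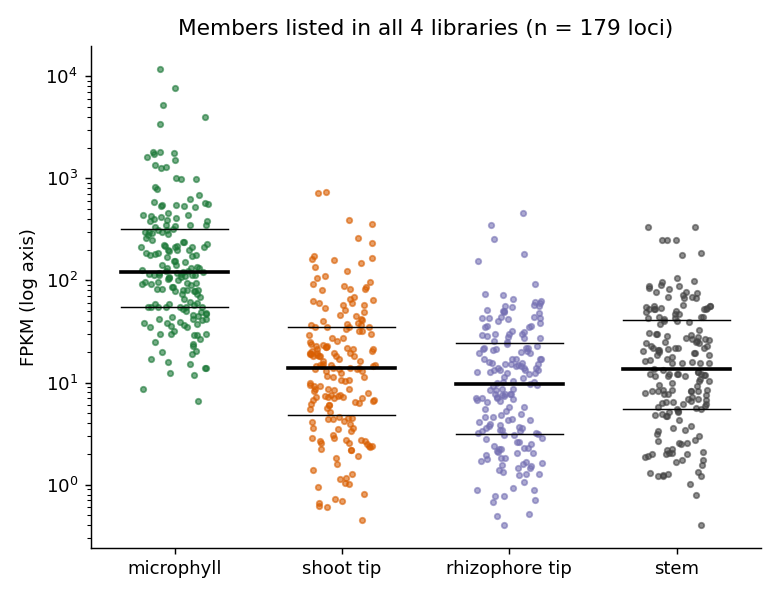
FPKM on a log axis of the 179 members listed in all 4 libraries, 1 point per locus and library, with the median as a thick line and the quartiles as thin lines. The medians are 121 in the microphyll, against 14.0 (shoot tip), 9.60 (rhizophore tip) and 13.6 (stem).

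The tissue next to the microphyll was the stem in 112 and the shoot tip in 106 of the 262 members listed in at least 1 other table, and the rhizophore tip in 44. As shares these were 42.7%, 40.5% and 16.8%. The order of stem and shoot tip rests on the scaling between libraries, since the stem came next in 74.0% and the shoot tip in 21.0% of the same 262 members in TPM. This scaling acts on every locus, and no TPM share of the other loci is given here. Over the 6632 loci that were highest in the microphyll with a preference between 0 and 2 and had another listing, the shares in FPKM were 32.1%, 42.7% and 25.2%. The rhizophore tip was thus the least frequent next tissue among the members listed elsewhere, as it was among the loci with the smaller preference. In the members listed in all 4 tables the median log2 difference from the microphyll was 2.77 for the stem, 2.83 for the shoot tip and 3.44 for the rhizophore tip.

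Most of the highest FPKM values rested on short entries. A merged locus can hold several entries, and the entry with the highest FPKM of a library is here called its main entry. Of the 8 members with the highest microphyll FPKM, 6 had a main microphyll entry shorter than 300 bp inside a longer merged locus. The first was the locus on contig 048097 from 1 to 825, with an FPKM of 11844 in the microphyll, against 389 (shoot tip), 41.8 (rhizophore tip) and 21.9 (stem). Nearly all of its microphyll value came from an entry of 168 bp, from 495 to 662 (FPKM 11787, interval 10623 to 12952), while the shoot tip entry spanned 821 bp. In fragments, which are not scaled for length, the order was reversed. There were 1243 over the 3 microphyll entries and 12286 for the shoot tip, a depth-scaled log2 ratio of -3.16.

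The next loci in FPKM had a similar build. On contig 058363 the locus from 1276 to 1608 had 7744 FPKM in the microphyll, against 720 (shoot tip), 256 (rhizophore tip) and 186 (stem). Its microphyll main entry was 153 bp long and the shoot tip entry 333 bp, and the log2 fragment ratio was -0.75. Next was contig 044211, where the locus from 61 to 730 had 5258 FPKM in the microphyll (interval 2518 to 7997), against 2.20 (shoot tip), 2.22 (rhizophore tip) and 30.4 (stem). Its microphyll value came from 14.7 fragments on an entry of 95 bp, against 58.2 fragments on 670 bp in the shoot tip. The member with the highest preference of all, 9.21, was the locus on contig 082051 from 12780 to 13129, with an FPKM of 1981 in the microphyll against 2.36 (shoot tip), and no entry in the other 2 tissues. It rested on 22.8 microphyll fragments and 21.0 shoot tip fragments, on entries of 100 bp and 350 bp. So a preference of 9.21 in FPKM stood beside a log2 fragment ratio of 0.26.

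In 3 further loci of the 8 the log2 fragment ratio lay between -0.80 and 0.51. On contig 066380 from 355 to 786 the FPKM was 3370 in the microphyll, against 727 (shoot tip), 462 (rhizophore tip) and 337 (stem), with a log2 fragment ratio of -0.30. On contig 046607 from 7861 to 10232 it was 1828 in the microphyll, against 33.5 (shoot tip), 35.8 (rhizophore tip) and 52.6 (stem), with a log2 fragment ratio of -0.80. There a microphyll entry of 284 bp lay within entries of 2292 to 2367 bp in the other tissues. On contig 076566 from 3379 to 7130 the FPKM was 1806 in the microphyll, against 106 (shoot tip), 351 (rhizophore tip) and 67.9 (stem), with a log2 fragment ratio of 0.51. The exception among the 8 was contig 020621, described with the other loci rich in fragments.

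Entry length moved with membership across all loci. Of the 72 merged loci of at least 300 bp whose main microphyll entry was shorter than 150 bp, 43.1% were members. The share was 8.73% of 653 loci from 150 to under 300 bp, 2.87% of 6507 from 300 to under 600 bp, 1.35% of 6313 from 600 to under 1200 bp and 0.942% of 8702 from 1200 bp. In all, 88 members (19.9%) had a main microphyll entry under 300 bp, against 3.26% of all loci listed in the microphyll. Among the members listed elsewhere, the main entry was that short in 9 of 247 (shoot tip), 11 of 193 (rhizophore tip) and 15 of 233 (stem). FPKM divides by transcript length corrected for fragment length, so a short entry has a small divisor. What part of each preference this makes was not tested beyond the comparison with fragments.

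**Figure D3:**
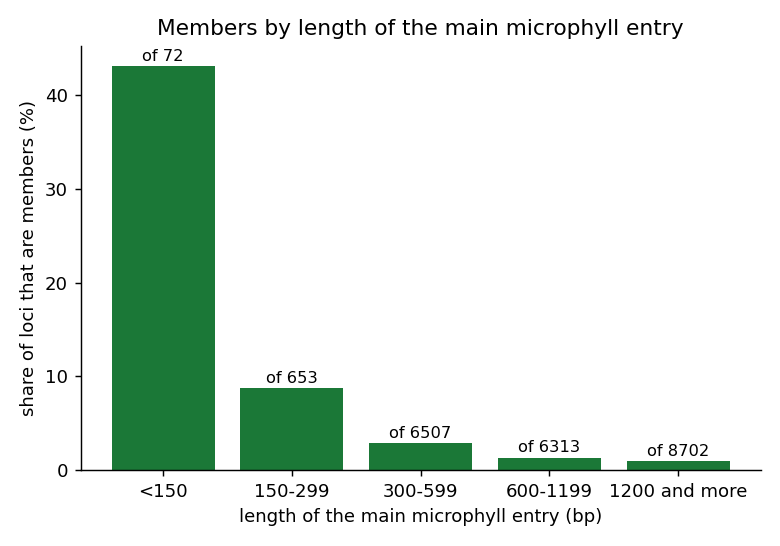
Share of the merged loci of at least 300 bp listed in the microphyll that are members (y axis, percent), by the length of the main microphyll entry (x axis, bp), with the number of loci above each bar. The share falls from 43.1% under 150 bp to 0.942% from 1200 bp.

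Fragments and FPKM gave different pictures of the members listed elsewhere. A fragment ratio could be formed for 248 of the 262. In 91 of them the microphyll had at least 4 times the depth-scaled fragments of the highest other tissue, in 46 the log2 ratio was from 1 to under 2, in 54 from 0 to under 1, and in 57 it was below 0. The median log2 ratio was 2.06 over 167 loci whose main microphyll entry had at least 300 bp and -0.08 over the 81 with a shorter one. Below 150 bp, 0 of 30 loci with a ratio reached 2 on the log2 scale, and their median was -0.95 beside a median preference of 4.42. The fragment ratio is scaled for depth and not for length. A short microphyll entry is thus set against all fragments of longer entries elsewhere, which by itself lowers the ratio. A low ratio on a short entry therefore does not show that the preference is absent. Where the main entries of the microphyll and of the next tissue overlapped by at least 50% of the longer, 85 of 163 loci with a ratio reached 2. Where they overlapped less, 6 of 85 did.

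**Figure D4:**
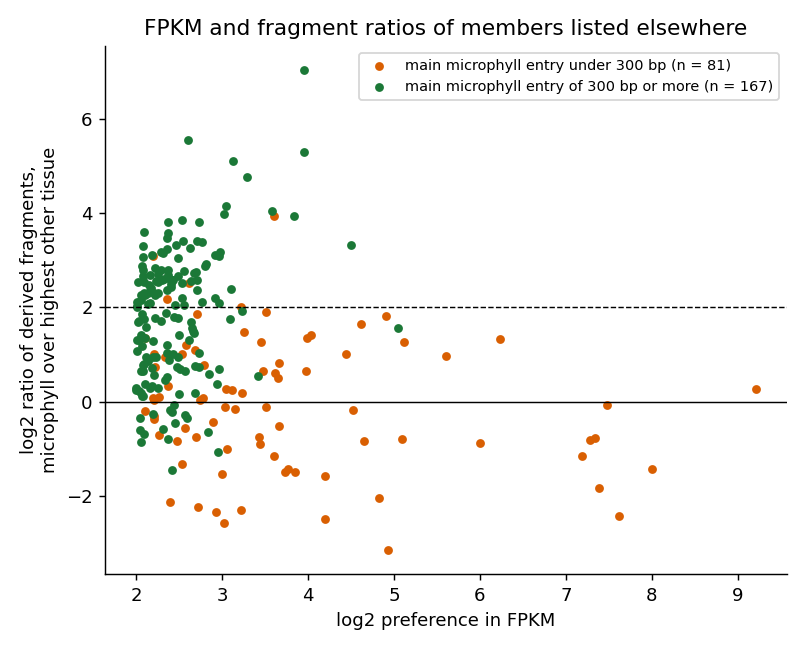
Log2 ratio of derived fragments, microphyll over the highest other tissue (y axis), against the log2 preference in FPKM (x axis), for the 248 members with both values. The fragment ratio is scaled for depth and not for length. The dashed line marks a log2 ratio of 2, which is 4 times the fragments. Loci with a main microphyll entry under 300 bp reach the highest preferences, up to 9.21, and their median fragment ratio is -0.08.

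Counting absent entries at 11 fragments, 182 of the 442 members (41.2%) had at least 4 times the fragments in the microphyll, 93 of them listed elsewhere and 89 in the microphyll alone. Over all 22247 loci of at least 300 bp with a microphyll entry, 511 (2.3%) passed this ratio, so 329 passed it without being members. Among those 329, the microphyll FPKM was under 3 in 85 and the main microphyll entry was longer than the main entry of each other tissue, where there was any, in 244. Both measures come from the same libraries, and neither is an independent check of the other. The 182 loci had a median microphyll FPKM of 16.0 and a median of 304 fragments. Of the 93 listed elsewhere, the next tissue was the shoot tip in 44, the stem in 43 and the rhizophore tip in 6. The rhizophore tip was next in 16.8% of all members listed elsewhere. At a preference between 0 and 2 that share was 25.2%. In the 47 listed in all 4 tables the median FPKM was 59.1 in the microphyll, against 8.19 (stem), 6.73 (shoot tip) and 3.36 (rhizophore tip). The rhizophore tip was lowest in 33 (70.2%). Among loci listed in all 4 tables, that share was 52.0% over the members, 40.9% at a preference between 0 and 2, and 28.5% over all that are no members. The 93, and the 47 among them, were also selected on few fragments in every other tissue, so their shares are not directly comparable.

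The 10 loci with the most microphyll fragments among these 93, chosen after their values were seen, had main microphyll entries of 519 to 1606 bp. The highest was the locus on contig 020621 from 16 to 1404, with an FPKM of 4026 in the microphyll (interval 4010 to 4043), against 259 (shoot tip), 3.22 (rhizophore tip) and 48.8 (stem). The microphyll and the shoot tip entry had nearly the same length, 1373 and 1380 bp, and the FPKM ratio was 15.6. It rested on 248318 fragments, which are 37.8% of all derived microphyll fragments of the members. The shoot tip interval implied 2072 fragments, fewer than an FPKM of 259 on this length would need if the microphyll entry is the yardstick, so that its fragment ratio is overstated and the FPKM ratio is the more cautious value.

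In 2 further loci the stem came next. Contig 046896 (499 to 1231) had 1783 FPKM in the microphyll (1763 to 1804), against 157 (shoot tip), 13.3 (rhizophore tip) and 336 (stem). Contig 098495 (1 to 990) had 999.6 FPKM in the microphyll (988 to 1011), against 164 (shoot tip), 9.27 (rhizophore tip) and 247 (stem). Both had entries of closely matching length in all 4 tables, and both were lowest in the rhizophore tip. Their log2 fragment ratios, 2.51 and 2.04, lay close to their preferences of 2.40 and 2.01.

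The shoot tip came next in 3 others. Contig 082187 (1 to 1156) had 521 FPKM in the microphyll, against 66.2 (shoot tip), 7.69 (rhizophore tip) and 56.4 (stem). Contig 067951 (5 to 545) had 427 FPKM in the microphyll, against 60.4 (shoot tip), 15.3 (rhizophore tip) and 52.6 (stem). In both, the shoot tip and the stem were close and the rhizophore tip was several times lower. Contig 050272 (8 to 976) had 295 FPKM in the microphyll, against 62.9 (shoot tip), 42.5 (rhizophore tip) and 50.3 (stem), a narrower spread among the other 3.

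The last 4 of the 10 had the stem next to the microphyll. Contig 094628 (80 to 921) had 276 FPKM in the microphyll, against 37.2 (shoot tip), 30.0 (rhizophore tip) and 55.6 (stem), where the lower bound of the stem interval was 0. That interval implied 0.941 stem fragments, a number raised to the listing level of 11. The place of this locus among those with at least 4 times the fragments therefore does not rest on a usable stem number. Contig 047864 (725 to 2732) had 198 FPKM in the microphyll, against 13.5 (shoot tip), 16.0 (rhizophore tip) and 24.5 (stem). Here the shoot tip was lowest, as it was on contig 073089. Contig 073089 (28 to 830) had 110 FPKM in the microphyll, against 18.2 (shoot tip), 21.2 (rhizophore tip) and 24.4 (stem). Contig 080718 (1 to 665) had 133 FPKM in the microphyll, against 14.0 (shoot tip), 8.61 (rhizophore tip) and 28.0 (stem). The rhizophore tip was thus lowest in 8 of the 10 loci, by a margin that differed from locus to locus.

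**Figure D5:**
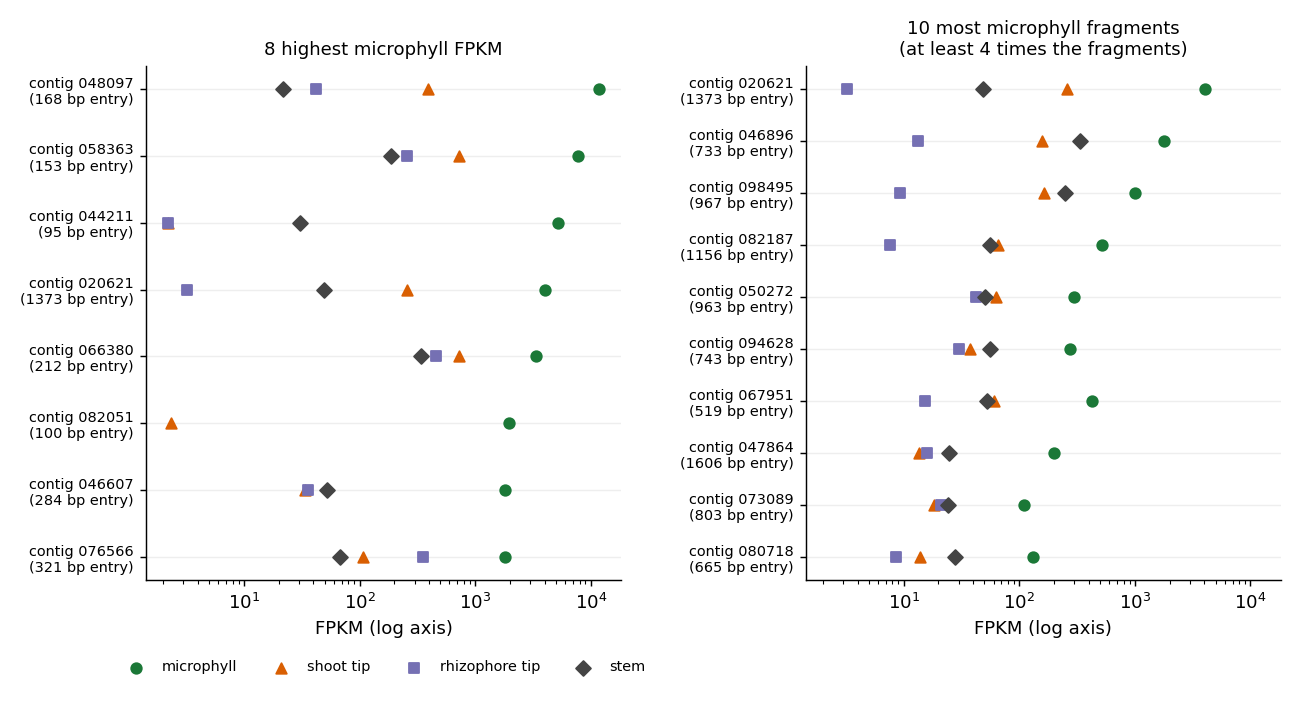
FPKM on a log axis in the 4 libraries for the 8 members with the highest microphyll FPKM (left) and for 10 members rich in microphyll fragments (right). These 10 have the most microphyll fragments among the 93 members listed elsewhere with at least 4 times the fragments. The length of the main microphyll entry stands under each contig name. A library without an entry has no symbol. On the left 6 of the 8 entries are shorter than 300 bp, and on the right all 10 have at least 519 bp.

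The members listed in all 4 tables with the highest preferences repeated the contrast of short and long entries. The locus on contig 061884 from 3 to 377 had 587 FPKM in the microphyll (262 to 913), against 2.38 (shoot tip), 2.64 (rhizophore tip) and 2.05 (stem), from 13.0 fragments on 104 bp. On contig 098306 from 8490 to 9846 the FPKM was 1275 in the microphyll, against 2.87 (shoot tip), 1.70 (rhizophore tip) and 7.23 (stem). Its 85.1 microphyll fragments were fewer than the 165 of the shoot tip. The locus on contig 084915 from 290 to 1342 differed from them, since it had more fragments in the microphyll, 2278 against 813 in the shoot tip. Its FPKM was 779 in the microphyll, against 21.3 (shoot tip), 20.4 (rhizophore tip) and 22.6 (stem), and its log2 fragment ratio was 1.57 beside a preference of 5.05. Contigs 044211, 046607 and 048097, given above, were also among these 6.

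Each of the 4 longest members held more than 1 microphyll entry. The longest, on contig 102810 from 3562 to 18228, spanned 14667 bp and held 6 microphyll entries. Its FPKM was 548 in the microphyll, against 12.3 (shoot tip), 50.3 (rhizophore tip) and 40.1 (stem), with a main microphyll entry of 572 bp and a shoot tip entry of 9684 bp. The locus on contig 069586 from 8 to 9231 had 115, 18.3, 12.3 and 22.0 FPKM in the same order of tissues. That on contig 062272 from 378 to 8736 had 1624, 354, 154 and 250 FPKM, and that on contig 105797 from 890 to 8294 had 351, 83.0, 60.4 and 82.4 FPKM. The log2 fragment ratios of these 4 lay between -0.26 and 0.54, so none reached 4 times. Over all members, 117 (26.5%) had more than 1 microphyll entry, against 19.0% of all listed loci.

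Loci next to the threshold differed widely in level. Just inside were the loci on contig 097871 from 42 to 4784 (FPKM 212 in the microphyll, 52.2 in the stem) and on contig 046270 from 44 to 3018 (118 and 28.7), both with a preference of 2.00. Just outside, also at 2.00 after rounding, were the loci on contig 047473 from 3 to 528 (10.2 in the microphyll against 1.81 for the shoot tip) and on contig 002699 from 3 to 402 (2.99 in the microphyll and no other entry). The precision within the microphyll library was moderate. The half-width of the interval of the main entry was 17.2% of its FPKM in the median member and 13.3% in the median listed locus, and in 4 members the lower bound was 0. Among the 262 members listed elsewhere, the summed microphyll interval met that of another tissue in 6, which describes the same FPKM that the selection used. These intervals cover error within a library and not between plants.

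Position on the contig did not set the members far apart. A start within 50 bp of the contig start was seen in 245 members (55.4%) and in 51.1% of all merged loci of at least 300 bp, and 349 members (79.0%) were alone on their contig against 73.7%. Of the 93 members with another such locus on the contig, the nearest neighbour lay a median of 288 bp away. The neighbours had a median preference of -0.31 for the microphyll, and 37 (39.8%) were highest there, beside 30.9% of all loci. A preference of at least 2 was reached by 4 of the 93 neighbours. These 4 are the members themselves on the 2 contigs that carry a pair of members. On contig 094541 the locus from 302 to 1890 had 123 FPKM in the microphyll, against 25.3 (shoot tip), 12.7 (rhizophore tip) and 26.7 (stem). Its stem value, the next highest, had an interval of 5.64 to 47.8 and rested on 6.43 fragments, under the listing level of 11. The locus from 2328 to 3625 of this contig had 3.05 FPKM in the microphyll and no other entry. On contig 099451 the locus from 2916 to 4067 had 20.6 FPKM in the microphyll against 3.07 (shoot tip), 0.711 (stem) and no rhizophore tip entry, and the locus from 4689 to 5020 had 3.88 FPKM in the microphyll alone.

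The same rule gave 508 loci preferential to the rhizophore tip (1.95%), 377 to the stem (1.45%) and 233 to the shoot tip (0.894%). The share listed in the preferred tissue alone was 40.7% (microphyll), 43.1% (rhizophore tip), 31.8% (shoot tip) and 24.1% (stem). The share with a main entry under 300 bp in that tissue was 19.9%, 16.9%, 25.3% and 26.0% in the same order, so that short main entries were found in all 4 sets. At least 4 times the fragments, with absent entries at 11, were found in 41.2% of the microphyll loci, 58.5% of the rhizophore tip loci, 45.1% of the shoot tip loci and 42.7% of the stem loci. The microphyll set had the lowest of these shares. With 1 library per tissue these differences between the sets were not tested.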

How the data were processed

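Each of the 4 tissues of S. kraussiana gave 1 library. Reads lost their first 10 bases before TopHat 2.0 placed them on draft contigs (ABySS 1.5.1), and transcripts were assembled and quantified in Cufflinks 2.1. The deposited values are FPKM with the bounds of an interval, given per locus and library, without gene names, strands or counts. There were 30999 microphyll entries, 30393 shoot tip entries, 29549 rhizophore tip entries and 28860 stem entries. The starts in the tables are counted from 0 and were converted to count from 1. No genome sequence was used here, so no locus sequence is shown.

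Entries were merged on an overlap of 1 bp into 31210 loci, FPKM was summed per library, and 26055 loci of at least 300 bp were kept. The pseudocount was 1, which compresses low values. The number of fragments behind an entry was taken as the squared ratio of 2 FPKM to the gap between FPKM and upper bound. Of 145 members with 1 microphyll entry and fewer than 100 fragments, 31.0% had a number within 0.05 of a whole one. Where the interval is wider than a Poisson interval, the number is an understatement. Fragments were summed per locus and scaled by median ratios over 6993 loci (microphyll 1, shoot tip 1.11, rhizophore tip 1.02, stem 0.871). Ratios were left out where the lower bound of a main entry was 0. Where absent entries were set to 11 fragments, such entries of the other tissues were kept, and numbers under 11 were raised to it.

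The loci named are the 8 members highest in FPKM, the 6 with the highest preference among those listed in all 4 libraries, the 4 longest, the 5 highest listed in the microphyll alone, 2 on each side of the threshold, and those on contigs with several members. Another 10 were chosen after their values were seen. The members and lists were chosen with earlier results of these data known. No test was made, because each tissue has 1 library. The computation was tested on simulated data, with 1 entry per locus and library and nearly equal bounds in all libraries. Unequal entry lengths and several entries per locus were not simulated. Python 3.11.15, pandas 2.3.3 and NumPy 2.4.6 were used.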

Additional observations from a re-analysis of the deposited data

How the results depend on the processing

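Values below are, in order, the number of members, the share listed in the microphyll alone, the median microphyll FPKM and the median length, which were 442, 40.7%, 25.2 and 666 bp as reported. They were 1521, 75.5%, 1.71 and 565 bp with a pseudocount of 0.1, 181, 12.7%, 141 and 969 bp with a pseudocount of 5, and 270, 10.7%, 112 and 924.5 bp in TPM, with 200 loci shared with the members. TPM divides by the summed FPKM, which was 3861860 in the microphyll and 7976760 in the rhizophore tip, and it took the share with the stem as next tissue from 42.7% to 61.8%. They were 276, 27.5%, 46.7 and 1150.5 bp from a length of 500 bp, 165, 20.0%, 55.5 and 1736 bp from 1000 bp, and 284, 12.3%, 78.5 and 944.5 bp from a microphyll FPKM of 10, as stricter filters pass fewer loci. A preference of at least 3 gave 119 members with a median FPKM of 46.5. With at most 1 entry per library the share listed alone was 52.1%, the median FPKM 13.1 and the median length 551 bp. Scaling by median of ratios, a demand for separate intervals and counting by contig left the number of members between 383 and 473.

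What follows, and the order of tissues in TPM for the members as reported, was added after seeing the data. The share listed alone and the median FPKM were 51.3% and 16.0 among members whose main entries overlap by at least 50% or that are listed alone, and 50.3% and 15.1 with a main microphyll entry of at least 300 bp. With at least 4 times the fragments they were 48.9% and 16.0, over 182 members. In fragments, which are scaled for depth and not for length, 8 of the 35 named members were reversed. Their log2 ratios were -3.16 (contig 048097), -1.84 (044211), -0.81 (098306), -0.80 (046607), -0.78 (061884), -0.75 (058363), -0.30 (066380) and -0.26 (062272). Another 9 stayed above 0 but under 2. The median preference of contig neighbours moved little, to -0.29 with neighbours of any length and -0.33 with those of FPKM 10 or more. No paired analysis was possible because there is a single library of each tissue, which also leaves no replicate to omit.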
